A study of Homo sapiens with 12 samples.

Results

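The 33 genes described here serve the folding, quality control and export of proteins in the endoplasmic reticulum (ER), the compartment where secreted and membrane proteins are made. They were taken by name from the deposited table of read counts, which holds 26485 gene symbols. All 33 were present, and all 33 were among the 15206 genes with enough reads to be tested. By role they were 11 ER chaperones and their cofactors, 6 disulfide and prolyl isomerases, 3 sensors and transcription factors of the unfolded protein response, 9 genes of ER-associated degradation and 4 genes of the translocon and of ER export.

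The study sequenced RNA of RD cells, an established human tumour line of fusion-negative rhabdomyosarcoma, a cancer whose cells resemble immature skeletal muscle. The cells carried 1 of 2 doxycycline-inducible hairpins against NT5E, which encodes CD73, a cell-surface enzyme that releases adenosine from AMP; the hairpins are named ish and ish2. For each hairpin, 3 libraries came from cells given 10 ng/mL doxycycline (Dox) for 96 h, which the labels call CD73 knockdown, and 3 from untreated cells of the same kind, which they call control. All 4 groups therefore share the RD background and carry a hairpin. The sources used here do not say whether the cells of each hairpin are a clone or a pool. No sample analysed here joined Dox with a non-targeting hairpin, so the drug, the induced hairpin and the loss of NT5E cannot be told apart within a Dox effect.

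HSPA5, better known as BiP, and HSP90B1, known as GRP94, are the main ATP-driven chaperones of the ER, the lectins CANX and CALR hold glycoproteins while they fold, and protein disulfide isomerases join their cysteines. When unfolded protein accumulates, the sensors IRE1 (the product of ERN1), ATF6 and PERK start the unfolded protein response: IRE1 splices the mRNA of XBP1, ATF6 is cut into a transcription factor, and PERK slows translation and favours ATF4. XBP1 and ATF6 act on ER stress elements in the promoters of chaperone and degradation genes. Muscle precursors are known to engage this response while they differentiate. The counts analysed here are per gene, so the spliced form of XBP1, the cleavage of ATF6 and all protein levels were not measured.

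Promoters of 30 of the 33 genes were matched in RefSeq (GRCh38.p14), and the 250 bases before each start were searched on both strands for 3 elements. The ER stress element (ERSE, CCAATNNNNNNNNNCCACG) was found in 8 of the 30 (26.7%), against 0.0916% of the 27305 genes in the promoter table. ERSE-II (ATTGGNCCACG) was found in 3 of the 30 (10%), against 0.0659% of genes, and the core of the XBP1 element (TGACGTGG) in 2 of the 30 (6.67%), against 0.78%. The 27305 genes include the 30, and 25 of the 27305 held an ERSE, the 8 included. Such elements are known from promoters of chaperone and degradation genes, so these contrasts are not a finding of these data. PDIA3, DERL1 and SEC24D had no promoter in the table. Each ERSE below is written 5′ to 3′ on the strand of its gene with 5 flanking bases, and capitals mark the CCAAT and CCACG boxes or their complements; the genes shown went different ways with Dox.
HSPA5, chr9:125241386-125241414, minus strand: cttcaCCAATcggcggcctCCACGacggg
HSP90B1, chr12:103930211-103930239, plus strand: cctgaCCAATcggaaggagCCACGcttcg
HSP90B1, chr12:103930316-103930344, plus strand: gggtgCGTGGtgcggcgcgATTGGtgggt
CALR, chr19:12938379-12938407, plus strand: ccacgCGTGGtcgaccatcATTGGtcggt
CANX, chr5:179698773-179698801, plus strand: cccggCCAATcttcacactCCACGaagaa
CRELD2, chr22:49918549-49918577, plus strand: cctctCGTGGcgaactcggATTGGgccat
PDIA6, chr2:10812848-10812876, minus strand: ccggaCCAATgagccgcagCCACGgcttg
XBP1, chr22:28800598-28800626, minus strand: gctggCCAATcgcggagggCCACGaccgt
SERP1, chr3:150546705-150546733, minus strand: tcatgCGTGGagacagcgaATTGGtgttt

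The compact ERSE-II, in which the same boxes are 1 base apart, stood in the promoters of HYOU1, HERPUD1 and SDF2L1 and is shown because HYOU1 holds it at 2 places.
HYOU1, chr11:119057375-119057395, minus strand: cgtgaCGTGGtCCAATcccag
HYOU1, chr11:119057269-119057289, minus strand: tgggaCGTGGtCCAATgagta
HERPUD1, chr16:56932020-56932040, plus strand: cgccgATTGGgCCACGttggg
SDF2L1, chr22:21642109-21642129, plus strand: ggaagCGTGGaCCAATcaaaa
In the first HYOU1 stretch the CGTGG of ERSE-II is also the end of a match to the core of the XBP1 element, so these matches overlap. The other match to that core was in TXNDC5. The starts are those of the RefSeq table, and by the gene spans of GENCODE 29 the stretches of HSP90B1, CANX, CRELD2, PDIA6 and SERP1 lie inside the gene. A match describes the letters only and shows neither binding nor control.

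Gene counts per library ran from 26566603 to 32692207. NT5E, the targeted gene, stood at 14.9, 18 and 17.3 CPM (counts for each 1000000 counted reads, scaled for library size and composition) in ish without Dox and at 1.94, 1.23 and 1.54 with it (log2 fold change -3.41, SE 0.11, adjusted p = 3.31e-25, edgeR quasi-likelihood test). In ish2 it stood at 24.1, 23.5 and 22.1 CPM without Dox and at 14.5, 15.2 and 14.1 with it (log2 fold change -0.67, SE 0.07, adjusted p = 4.62e-11). NT5E was thus lower with Dox in all 3 libraries of both, and its fall differed in size between them by 2.74 on the log2 scale. Nothing in the labels says that replicates are separate cultures, so p-values measure the spread between libraries, which may be technical. That spread was small (biological coefficient of variation 2.44%), and small fold changes pass the test. In ish2 without Dox, replicate 3 was the highest of its group for 23 of the 33 genes and for 10 of the 11 chaperones, against 36.9% of all tested genes. In ish with Dox, replicate 1 was the highest for 26 of the 33, against 35.3% of all tested genes. Markers of skeletal muscle precursors were present: DES ranged from 297 to 553 CPM, MYOD1 from 107 to 345 and CHRNA1 from 792 to 1158, while MYF5 had 0 to 1 read per library. Of 8 markers of blood, endothelium, epithelium, liver and neural crest, CD68 reached 3.67 CPM and each of the other 7 stayed at or below 0.399.

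With Dox, more of the 33 genes fell than rose in ish, and more rose than fell in ish2. In ish, 17 of the 33 fell and 11 rose (edgeR, adjusted p under 0.05 over all 15206 tested genes), led by falls of HSP90B1 (-1.52 log2) and PDIA4 (-1.44) and a rise of the export gene SEC24D (1.65). In ish2, 22 rose and 3 fell, led by rises of the co-chaperones DNAJB9 (1.05) and DNAJC3 (0.76) and of the sensor gene ERN1 (0.98). The test called 78.6% of all genes in ish and 65% in ish2, so the share of the 33 called, 84.8% and 75.8%, is near the background in each. Their split by direction was further from it: 39.5% of all genes were called lower and 39.1% higher in ish, and 33.9% higher and 31.1% lower in ish2.

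The median log2 fold change of the 33 was -0.102 in ish, against -0.008 over all tested genes, and 0.149 in ish2, against 0.013. In absolute size their median change was 0.424 in ish and 0.188 in ish2, beside 0.401 and 0.248 over all genes. The groups with and without Dox did not overlap for 29 of the 33 in ish and for 23 in ish2, where 80.6% and 66.6% of all genes showed the same. At least 2-fold changes were few, with 3 members in ish (HSP90B1, PDIA4 and SEC24D) and 1 in ish2 (DNAJB9), against 17.8% and 6.14% of all genes. Without the control library that stood apart, ish2 replicate 3, the counts in ish2 were 25 higher and 3 lower, with CRELD2, DERL2 and PDIA6 called as well. Without ish Dox replicate 1 the counts in ish were again 11 higher and 17 lower.

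**Figure D1:**
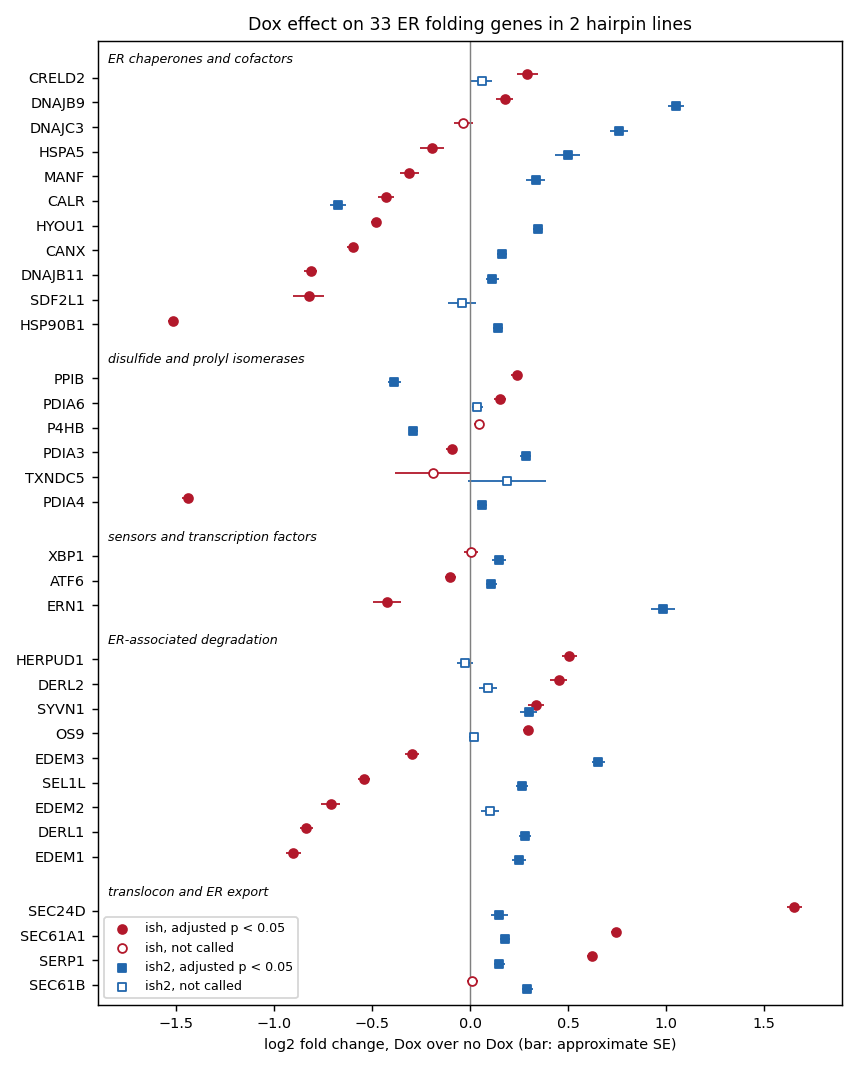
Log2 fold change with Dox for the 33 genes by role, in ish (red circles) and ish2 (blue squares), with bars for the approximate SE; filled symbols passed an adjusted p of 0.05. Chaperone symbols of ish lie mostly left of 0, down to -1.52 for HSP90B1, while those of ish2 lie mostly right of it, up to 1.05 for DNAJB9.

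Because ish and ish2 share no library, the direction of each gene can be set side by side. There were 14 of the 33 genes that fell in ish and rose in ish2 (42.4%), a class that held 14.1% of all tested genes. It was made up of 6 chaperone genes (HSPA5, HSP90B1, DNAJB11, HYOU1, MANF and CANX), the isomerases PDIA3 and PDIA4, the sensor genes ERN1 and ATF6, and the degradation genes EDEM1, EDEM3, SEL1L and DERL1. The other three classes held close to or less than the share of all genes: 5 rose in both (15.2%, against 13.8%), CALR alone fell in both (3.03%, against 14.1%), and PPIB alone rose in ish and fell in ish2 (3.03%, against 12%). The rise of PDIA4 in ish2 was the weakest of the calls in the first class (log2 fold change 0.06, adjusted p = 0.0394), with overlapping groups, and under most other settings tried it did not pass. The test of the difference itself, the ish2 effect minus the ish effect, called 31 of the 33 genes, 20 with a higher value in ish2 and 11 with a lower one; it called 72.6% of all genes, 37.4% higher and 35.2% lower.

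**Figure D2:**
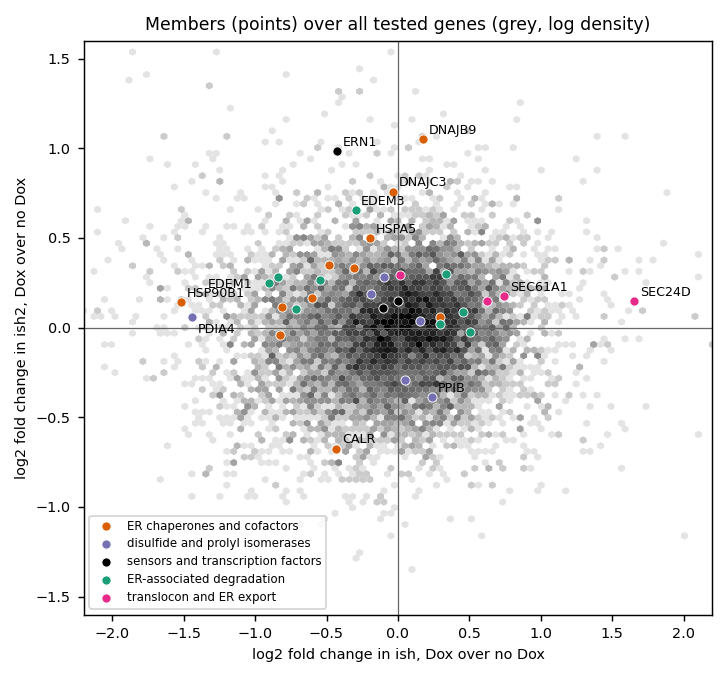
Log2 fold change with Dox in ish (x axis) against ish2 (y axis), with the 33 genes as points coloured by role over the density of all 15206 tested genes in grey, 791 of which lie outside the axes. The upper left holds the genes lower in ish and higher in ish2, among them HSP90B1, PDIA4, ERN1, EDEM1 and HSPA5; SEC24D stands alone at the right.

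Genes of dividing and of differentiating muscle cells moved in the same libraries. All 10 mitosis markers fell in ish and 9 of 10 in ish2, where 39.5% and 31.1% of all tested genes were called lower. The summed level of the 10 was 2605 to 2679 CPM without Dox and 1171 to 1189 with it in ish. In ish2 it was 2694 to 2941 and 1744 to 1798 CPM. MKI67, which marks cycling cells, fell by 0.93 and 1.17 on the log2 scale, and the smallest p-values were those of TOP2A (-1.52 and -0.62), NUSAP1 (-1.23 and -1.03), CCNB2 in ish (-1.80) and AURKA in ish2 (-0.56). Of the 7 muscle markers tested, 6 rose and 1 fell in ish, where their sum was 1744 to 1832 CPM without Dox and 3304 to 3532 with it. In ish2, 2 rose and 4 fell, and the sum was 1901 to 1951 and 1954 to 1990.1 CPM. Of all tested genes, 39.1% were called higher and 39.5% lower in ish, and 33.9% higher and 31.1% lower in ish2. MYOG, the factor of terminal muscle differentiation, rose by 2.62 in ish and fell by 2.24 in ish2. The smallest p-values among muscle markers were those of MYOD1 (1.6), MYMK (2.55) and CDH15 (1.00) in ish and of DES (0.65), CDH15 (-0.58) and MYH3 (-1.21) in ish2. These values stand beside every gene group below, and their part in the results was not tested. In bulk RNA, fewer cells that express a gene and less of its RNA per cell cannot be told apart.

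Of the 11 chaperones and cofactors, 8 fell and 2 rose in ish (median log2 fold change -0.43), and 8 rose and 1 fell in ish2 (median 0.16). The share called was 90.9% in ish and 81.8% in ish2, against 78.6% and 65% of all tested genes. By direction, 39.5% of all tested genes were called lower and 39.1% higher in ish, and 33.9% higher and 31.1% lower in ish2. The summed level of the 11 was 4171 to 4348 CPM in ish without Dox and 2597 to 2675 with it. In ish2 it was 4567 to 5051 and 5077 to 5133 CPM. The sum thus fell clear of its controls in ish, and in ish2 lay just above them, where the highest control was replicate 3. HSP90B1 (chromosome 12, 103930107 to 103953645, plus strand, GRCh38), the ER member of the HSP90 family, gave most of the loss in ish: 1393, 1413 and 1387 CPM without Dox and 499, 479 and 487 with it. HSP90B1 was thus 2.86-fold lower, with the groups far apart (log2 fold change -1.52, SE 0.03, adjusted p = 2.91e-33). In ish2, HSP90B1 stood at 1545, 1522 and 1660.3 CPM without Dox and at 1739.9, 1757 and 1717 with it, a rise by 0.14 (SE 0.03, adjusted p = 1.3e-05) with the groups close but not overlapping.

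HSPA5 (chromosome 9, 125234853 to 125241330, minus strand) encodes BiP, the HSP70 of the ER, which also keeps the stress sensors silent. Without Dox it stood at 626, 707 and 663 CPM in ish, and with Dox at 589, 576 and 579.5. All 3 Dox libraries were lower, a small fall (log2 fold change -0.19, SE 0.06, adjusted p = 0.0186) beside a spread of its controls of 13% from lowest to highest. In ish2 it stood at 636, 644 and 749.6 CPM without Dox and at 963, 955 and 949 with it, a 1.41-fold rise (log2 fold change 0.50, SE 0.06, adjusted p = 7.79e-05) that was clear of even the highest control.

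The J-domain co-chaperones, which stimulate the ATPase of BiP, differed among themselves. DNAJB9, also called ERdj4, stood at 34.9, 33.4 and 31.5 CPM in ish2 without Dox and at 67.1, 68.2 and 71.4 with it. This 2.07-fold rise (log2 fold change 1.05, SE 0.04, adjusted p = 5e-22) was the largest among the 33 genes in ish2. In ish, DNAJB9 went from 35.6, 37.3 and 38.0 to 43.0, 40.2 and 42.2 CPM, a rise by 0.18 without overlap. DNAJC3, also called p58IPK, stood at 22.6, 22.5 and 23.3 CPM in ish2 without Dox and at 37.1, 39.4 and 39.3 with it (0.76). In ish its groups overlapped, at 22.2, 22.4 and 21.9 CPM without Dox and 22.5, 21.0 and 21.4 with it, and the change of -0.03 did not pass (adjusted p = 0.523). DNAJB11, or ERdj3, fell in ish from 98.6, 101 and 100.2 to 58.4, 55.1 and 57.0 CPM (-0.81). In ish2 it read 120.4, 117 and 129.9 CPM without Dox and 136, 132 and 129.8 with it, with the highest control above the lowest Dox library. Its rise there (0.11, adjusted p = 0.00235) did not pass without ish2 no-Dox replicate 2 (0.07, adjusted p = 0.0891; range without 1 library 0.07 to 0.14).

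HYOU1, a large HSP70 relative that exchanges nucleotides on BiP, stood at 289, 301 and 294 CPM in ish without Dox and at 216, 211 and 207 with it. The libraries with Dox were all lower (-0.48). In ish2, HYOU1 read 337, 343 and 347 CPM without Dox and 431, 435 and 440.0 with it, all higher (0.35). MANF, a small ER-resident protein that binds BiP, showed 74.3, 79.4 and 74.0 CPM in ish without Dox and 62.0, 60.0 and 61.6 with it (-0.31), a fall without overlap. In ish2, MANF showed 70.5, 72.9 and 84.2 CPM without Dox and 96.1, 98.1 and 92.9 with it (0.33), a rise that cleared replicate 3 of the controls. SDF2L1, a partner of DNAJB11, had 14.8, 17.2 and 14.4 CPM in ish without Dox and 8.14, 8.47 and 9.54 with it, a fall by 0.82 without overlap. In ish2 its values overlapped, at 16.2, 16.9 and 19.5 CPM without Dox and 17.6, 17.5 and 16.1 with it (-0.04, adjusted p = 0.611). CRELD2, an ER stress-inducible thiol-disulfide protein, rose in ish (0.29; 23.0 to 24.4 CPM without Dox, 27.3 to 30.8 with it) and was not called in ish2 (0.06).

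The lectin chaperones CANX and CALR, which bind the same glycan of folding glycoproteins, separated in ish2. CANX, the membrane-bound one, stood at 819, 847 and 839.7 CPM in ish without Dox and at 557, 539.7 and 556 with it (-0.60). In ish2 it stood at 874, 861 and 929 CPM without Dox and at 989.8, 987 and 1005 with it (0.16), so CANX fell in the first and rose in the second with no overlap in either. CALR (chromosome 19, 12938578 to 12944489, plus strand), the soluble one, fell in both: in ish from 775, 799 and 777 to 589, 579 and 576 CPM. That fall was 0.43 (SE 0.04, adjusted p = 1.54e-07). In ish2, CALR fell from 922, 903 and 1042 to 621, 591 and 585 CPM, by 0.67 (SE 0.04, adjusted p = 1.22e-09). CALR was the one chaperone that fell in ish2, and its fall there was larger than in ish by 0.24 (adjusted p = 0.00184). Its controls in ish2 had a higher level than those of ish by 0.29, while the Dox libraries of both lay between 576 and 621 CPM.

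**Figure D3:**
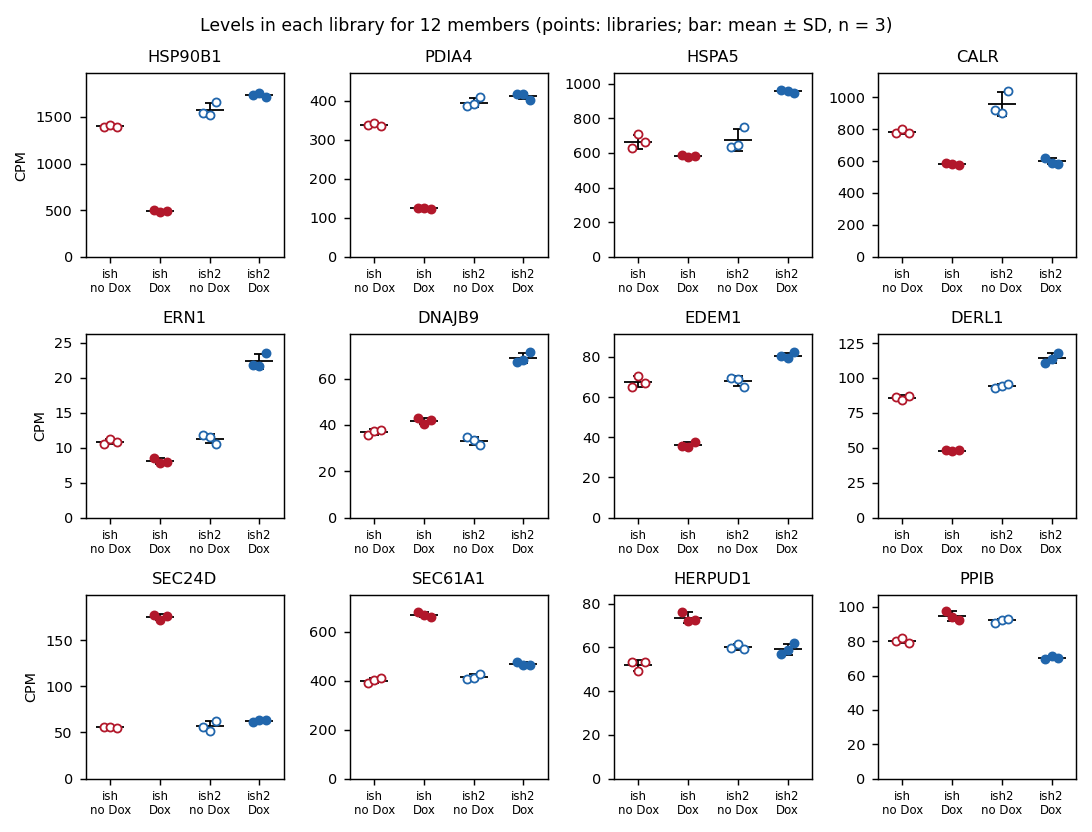
Levels in CPM of 12 of the genes in each library (points) of the 4 groups, with bars for the mean and its SD (n = 3); each axis starts at 0. HSP90B1, PDIA4, EDEM1 and DERL1 are low in ish with Dox alone, ERN1 and DNAJB9 are high in ish2 with Dox, SEC24D is high in ish with Dox, and CALR is low with Dox in both.

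Among the 6 disulfide and prolyl isomerases, 2 fell and 2 rose in each, with medians of -0.02 in ish and 0.05 in ish2. The share called was 66.7% in each, near the 78.6% of all tested genes in ish and 65% in ish2. PDIA4 (chromosome 7, 149003062 to 149028641, minus strand), also called ERp72, fell 2.72-fold in ish, from 337, 343 and 335 to 126, 126 and 122 CPM (log2 fold change -1.44, SE 0.03, adjusted p = 1.91e-32). In ish2 it read 385, 391 and 408 CPM without Dox and 416, 418 and 402 with it, an overlap of the highest control with the lowest Dox library. PDIA3, the isomerase that works with CANX and CALR, read 442, 441 and 429 CPM in ish without Dox and 414, 412 and 403 with it, a small fall (-0.09, adjusted p = 0.00309). In ish2, PDIA3 rose from 516, 511 and 563 to 654, 643 and 639 CPM (0.28) without overlap. PDIA3 thus changed little in ish beside PDIA4, its relative of the same family.

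PPIB, cyclophilin B, a prolyl isomerase of the collagen pathway, went the other way. In ish it rose from 80.4, 81.8 and 78.8 to 97.7, 94.0 and 92.5 CPM (0.24). In ish2 it fell from 90.9, 92.7 and 92.9 to 69.9, 71.2 and 70.4 CPM (-0.39), and neither comparison had overlapping groups. P4HB, the founding disulfide isomerase, fell in ish2 (-0.29; 625 to 645 CPM without Dox, 513 to 529 with it) and was not called in ish (0.05, adjusted p = 0.0745). PDIA6, which also restrains IRE1, rose by 0.15 in ish, where it had 215 to 219 CPM without Dox and 234 to 247 with it, and was not called in ish2 (0.04). TXNDC5 had only 46 to 92 reads per library and passed in neither; 60.6% of its exonic bases are shared on the same strand with the readthrough gene BLOC1S5-TXNDC5, listed at 0 in every library, so its level is uncertain. Of the exonic bases of PPIB and PDIA6, 27.2% and 25.2% overlap a gene on the opposite strand, and the sources used here do not give the strand setting of the counting. Other members had smaller overlaps of this kind, the next being PDIA3 with 18.9%, DNAJB11 with 15.3% and OS9 with 13.5%.

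The 3 sensor and factor genes all rose in ish2, while in ish 2 fell and XBP1 was not called. Of all tested genes, 33.9% were called higher in ish2 and 39.5% lower in ish. ERN1 (chromosome 17, 64039142 to 64130819, minus strand), which encodes IRE1, had the lowest level per length of mRNA of the 32 genes other than TXNDC5. It stood at 11.8, 11.5 and 10.6 CPM in ish2 without Dox and at 21.8, 21.6 and 23.5 with it. All 3 Dox libraries lay well above the controls, a 1.98-fold rise (log2 fold change 0.98, SE 0.06, adjusted p = 1.75e-16). In ish, ERN1 fell from 10.6, 11.2 and 10.8 to 8.50, 7.81 and 7.97 CPM (log2 fold change -0.42, SE 0.07, adjusted p = 1.83e-06), again without overlap. ATF6 changed little: 175, 181 and 180.4 CPM without Dox and 168, 165 and 167 with it in ish (-0.10). In ish2 it read 169, 173 and 161 CPM without Dox and 176, 179 and 186 with it (0.11), each time with separate groups. The rise in ish2 did not pass without ish2 Dox replicate 3 (0.07, adjusted p = 0.0663; range without 1 library 0.07 to 0.11), and without ish2 no-Dox replicate 3 it was 0.07 (adjusted p = 0.0484). XBP1, the target of IRE1, had 97.3 to 106 CPM in ish2 without Dox and 109.8 to 117 with it, a rise by 0.15 (adjusted p = 0.000336; 0.10, adjusted p = 0.014, without ish2 no-Dox replicate 3), and its log2 fold change in ish was 0.003 (adjusted p = 0.942).

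ER-associated degradation recognises misfolded glycoproteins, passes them through the membrane and hands them to the proteasome. All 9 of its genes were called in ish, 5 lower and 4 higher (median -0.30), while in ish2 5 rose and none was called lower (median 0.25). Of all tested genes, 78.6% were called in ish, split almost evenly by direction, so the count in ish is near the background. The share of the 9 called in ish2 was 55.6%, below the 65% of all tested genes (33.9% higher and 31.1% lower). The genes that fell in ish were EDEM1, EDEM2 and EDEM3, the mannosidase-like lectins that mark glycoproteins for disposal, with SEL1L, the adaptor of the HRD1 ligase, and DERL1, a membrane protein of the exit channel. The genes that rose in ish were SYVN1, which encodes HRD1 itself, HERPUD1, which organises its complex, DERL2 and the lectin OS9. Subunits of one complex, SEL1L and SYVN1, thus went opposite ways in ish.

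EDEM1 (chromosome 3, 5187646 to 5219957, plus strand) fell 1.87-fold in ish, from 65.1, 70.5 and 67.1 to 35.8, 35.1 and 37.5 CPM (log2 fold change -0.90, SE 0.04, adjusted p = 1.04e-21). In ish2 it rose from 69.5, 69.0 and 64.9 to 80.4, 79.2 and 82.2 CPM (0.25). DERL1 fell 1.79-fold in ish, from 86.0, 83.9 and 87.4 to 48.4, 47.5 and 48.1 CPM (-0.84). In both genes the Dox libraries left the range of their controls, and so they did for DERL1 in ish2, which rose from 92.5, 94.3 and 95.4 to 111, 114 and 118 CPM (0.28). SEL1L fell in ish from 105, 105 and 106 to 73.1, 72.3 and 72.0 CPM (-0.54). In ish2 it rose from 98.4, 99.0 and 99.1 to 114, 123 and 119 CPM (0.26). SEL1L did not overlap between groups in either, with the widest spread in ish2 with Dox. EDEM3 fell in ish from 108, 114 and 112 to 93.3, 86.8 and 92.3 CPM (-0.30). In ish2 it rose 1.57-fold, from 113, 106 and 108 to 163, 175 and 177 CPM (0.65), the largest change of a degradation gene there.

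The degradation genes that rose in ish did so by 0.51 for HERPUD1, 0.45 for DERL2, 0.34 for SYVN1 and 0.29 for OS9. HERPUD1 had 49.0 to 53.3 CPM in ish without Dox and 71.9 to 76.4 with it. DERL2, a relative of DERL1, had 44.7 to 47.0 and 60.8 to 64.3 CPM, SYVN1 32.9 to 36.7 and 43.2 to 44.5 CPM, and OS9 270.3 to 272 and 330.2 to 336 CPM, so all 4 genes had Dox libraries above every control. Of these, SYVN1 alone was also called in ish2 (0.30), and its effects in ish and ish2 did not differ beyond their error (difference -0.04, SE 0.06, adjusted p = 0.578). HERPUD1, which has an ERSE-II, was not called in ish2 (-0.03, adjusted p = 0.571), nor were DERL2 (0.09) and OS9 (0.02). EDEM2 fell by 0.71 in ish, with 31.6 to 34.5 CPM without Dox and 19.0 to 21.0 with it, and had 0.10 in ish2 (adjusted p = 0.0543), just outside the threshold. Of the exonic bases of SYVN1, 8.39% are shared with FAU and a microRNA gene on the same strand, so its level is less certain. The same limit holds for DNAJB11 (7.87% shared on the same strand) and, to a smaller extent, HSP90B1 (2.79%).

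Of the 4 translocon and export genes, 3 rose in ish (median 0.68) and 4 in ish2 (median 0.16), with none called lower, where 39.1% and 33.9% of all tested genes were called higher. Their summed level was 676 to 704 CPM without Dox and 1147 to 1166 with it in ish, and 689 to 728 and 794 to 805 CPM in ish2. SEC24D (chromosome 4, 118722823 to 118838683, minus strand), a cargo-selecting subunit of the COPII coat that forms vesicles at the ER, stood at 55.5, 56.3 and 54.7 CPM in ish without Dox and at 177, 171 and 176 with it. This 3.15-fold rise (log2 fold change 1.65, SE 0.04, adjusted p = 2.19e-26) was the largest change among the 33 genes. In ish2, SEC24D read 55.4, 52.0 and 62.4 CPM without Dox and 61.6, 63.0 and 63.6 with it, where control replicate 3 lay among the Dox libraries. That rise (0.15, adjusted p = 0.00309) did not pass without ish2 no-Dox replicate 2 (0.07, adjusted p = 0.11; range without 1 library 0.07 to 0.21). SEC61A1, the pore of the translocon, rose by 0.74 in ish (389 to 409 CPM without Dox, 662 to 681 with it) and by 0.18 in ish2. SEC61B, its beta subunit, was not called in ish (0.01, adjusted p = 0.74) and rose by 0.29 in ish2 (105 to 112 CPM without Dox, 129.8 to 137 with it). SERP1, a stabiliser of newly made membrane proteins, rose by 0.62 in ish (128 to 136 CPM without Dox, 201 to 204 with it) and by 0.15 in ish2.

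**Figure D4:**
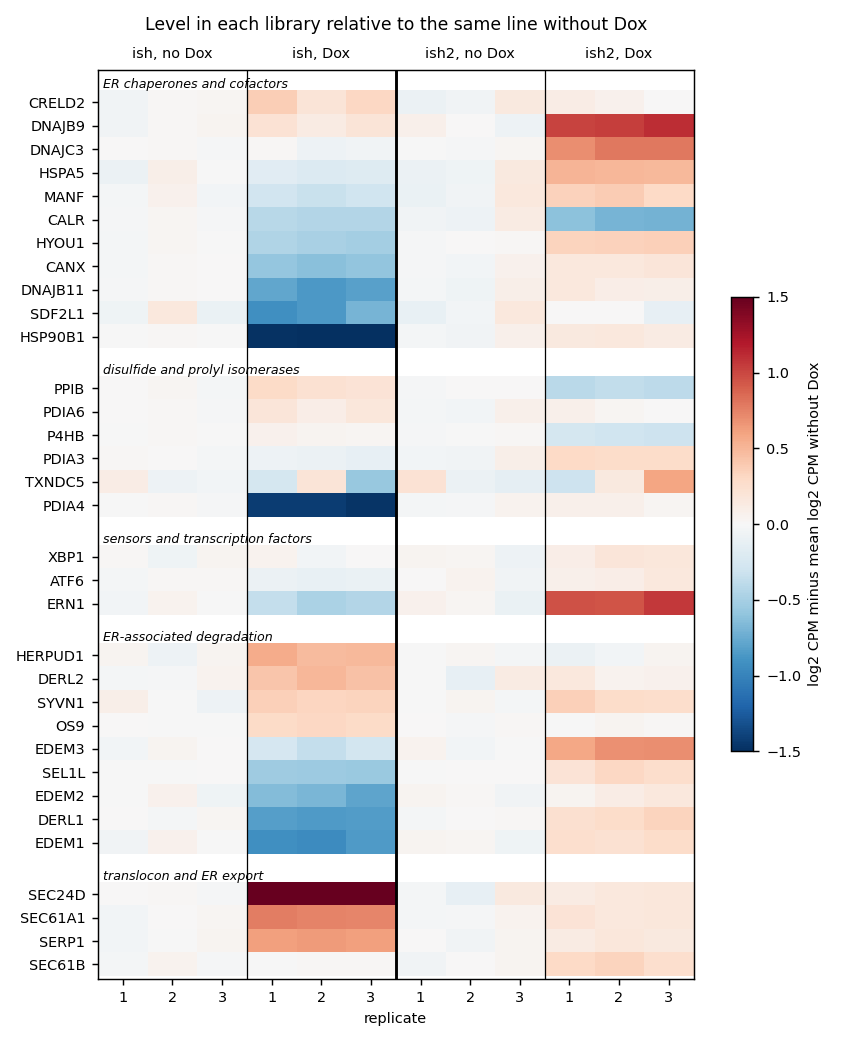
Level of each gene in each of the 12 libraries as log2 CPM minus the mean log2 CPM of the same cells without Dox, red above and blue below, with the colour scale ending at 1.5 in each direction. HSP90B1 and SEC24D reach the ends of the scale in ish with Dox, and the slight red of ish2 no-Dox replicate 3 runs through most chaperones.

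Genes with an ER stress element did not move as a block. Of the 8 with an ERSE, 4 fell (HSPA5, HSP90B1, CALR and CANX) and 3 rose (CRELD2, PDIA6 and SERP1) in ish, with a median of -0.096. In ish2, 5 of them rose and CALR fell (median 0.145). The 18 genes with a promoter in the table and none of the 3 elements had medians of -0.068 in ish (6 rose, 9 fell) and 0.213 in ish2 (13 rose, 2 fell). Beside these counts, 39.5% of all tested genes were called lower and 39.1% higher in ish. The shares in ish2 were 33.9% higher and 31.1% lower. The split of the 8 in ish, 4 to 3, is thus near the background. HSP90B1, with 2 matches to ERSE, fell the most in ish, while PDIA4, with none in the 250 bases searched, fell almost as much. These figures describe the letters beside the changes, and the part of the elements was not tested.

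Levels were compared between genes after dividing CPM by the length of the reference mRNA (GENCODE 29). In ish without Dox, HSP90B1 was highest at 489 ± 4.76 CPM per kb (mean ± SD, n = 3), followed by CALR (412 ± 6.94), P4HB (213 ± 1.6), CANX (196 ± 3.43), SEC61B (194 ± 6.17) and HSPA5 (170.3 ± 10.4). DNAJC3 (3.96 ± 0.0486) and ERN1 (1.38 ± 0.0431) were lowest, and the order spanned 355-fold over 32 genes, TXNDC5 left out. In 11 of 31 pairs of neighbours in this order the ranges of the 3 libraries overlapped, among them CANX with SEC61B and MANF with HYOU1. With Dox the order changed at the top in ish: HSP90B1 went to 171 ± 3.56 CPM per kb, below CALR at 305 ± 3.55, P4HB at 219 ± 2.74, SEC61B at 196 ± 1.47 and SEC61A1 at 184 ± 2.7. In ish2, CALR went from 502 ± 39.4 to 315 ± 10.3 and HSPA5 from 173 ± 16.2 to 245 ± 1.76 CPM per kb, and HSP90B1 stayed highest at 608 ± 7.06.

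**Figure D5:**
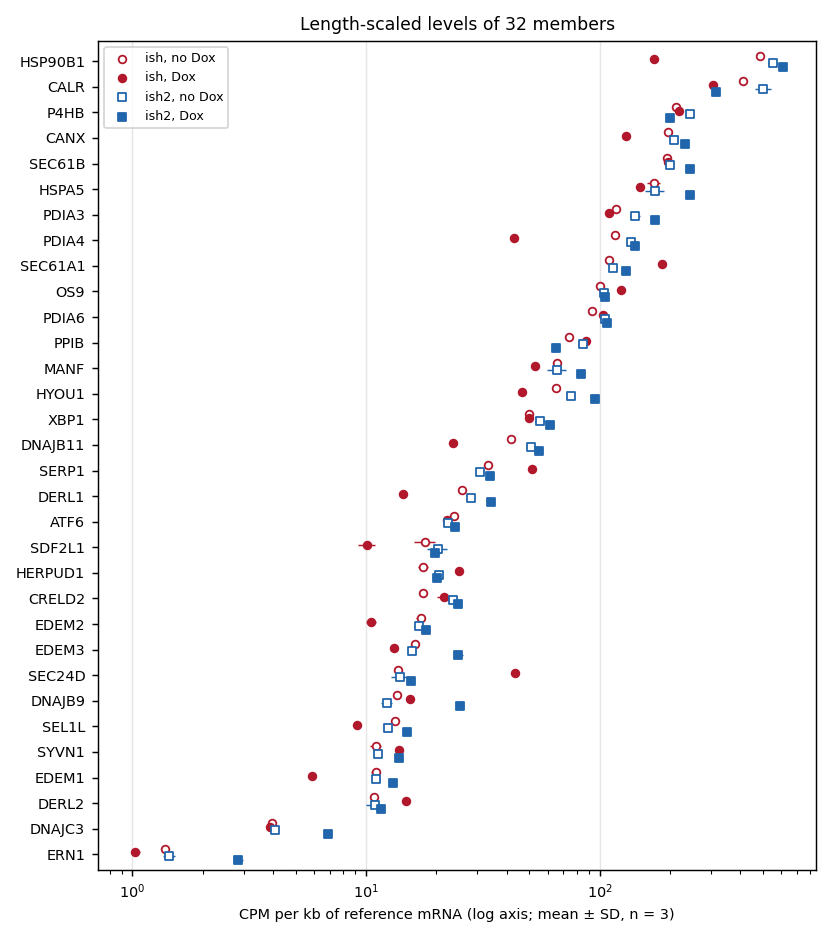
CPM per kb of reference mRNA (log axis; mean ± SD, n = 3) of 32 genes in the 4 groups, ordered by the level in ish without Dox. The order runs from HSP90B1 at 489 to ERN1 at 1.38, and PDIA4, EDEM1, DERL1 and SEC24D in ish with Dox lie far from their other symbols.

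Without Dox, ish2 and ish cells already differed in this set. Of the 33 genes, 14 were higher in ish2 and 4 were lower, against 13.7% and 12.4% of all tested genes (26.1% in all). The differences were small, with a median of 0.057 and none past 2-fold, and groups did not overlap for 20 of the 33, against 38.2% of all genes. The largest was CRELD2, which was 0.43 higher on the log2 scale (23.0 to 24.4 CPM in ish and 30.0 to 35.5 in ish2), ahead of DNAJB11 (0.29), CALR (0.29) and PDIA3 (0.28). DNAJB9, SERP1, SEL1L and ATF6 were the 4 called lower (between -0.15 and -0.09). With a replicate block 10 were higher and none lower, and without ish2 no-Dox replicate 3, 13 were higher and 2 lower. NT5E itself was 0.47 higher in ish2 without Dox (adjusted p = 6.14e-07).

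Other genes of the same pathways, from lists of genes outside the 33, gave the setting. Of 13 genes of the PERK and ATF4 arm, 8 fell and 3 rose in ish, and 6 rose and 4 fell in ish2 (medians -0.32 and 0.28). Their changes ran from -2.23 to 2.00 in ish and from -1.23 to 1.28 in ish2, and not all of the largest are named here. The summed level of the 13 spread widely in ish2 without Dox, from 1199 to 1498 CPM, and was 1280 to 1400 CPM with it. The share called was 84.6% in ish and 76.9% in ish2, against 78.6% and 65% of all tested genes. By direction, 39.5% of all tested genes were called lower and 39.1% higher in ish, and 31.1% lower and 33.9% higher in ish2. DDIT3, the stress factor CHOP, fell by 1.05 in ish and was not called in ish2 (0.02, adjusted p = 0.728). ATF4 mRNA rose by 0.29 in ish and fell by 0.19 in ish2, whereas PPP1R15A, the inducible subunit of the phosphatase that ends the PERK signal, fell by 0.19 and rose by 0.46. PPP1R15B, its constitutive counterpart, rose in both (0.39 and 0.36), and NUPR1, a stress-inducible nuclear protein, rose by 2.00 and fell by 1.23. Of 11 other signalling genes of the response that were tested, 6 fell and 4 rose in ish and 5 fell and 3 rose in ish2. The share called was 90.9% in ish and 72.7% in ish2. CREB3L4, a membrane-bound factor related to ATF6, fell by 1.52 and 0.29, and CREB3L1 by 0.70 and 1.23, while CREB3 rose by 0.45 and 0.21. Of the proteases that cut ATF6, MBTPS1 fell by 0.23 in ish and 0.24 in ish2, whereas MBTPS2 fell by 0.80 in ish and rose by 0.12 in ish2, and TRAF2, which binds IRE1, fell by 0.85 and 0.19. EIF2AK3, the gene of PERK, named after its values were seen, rose by 0.42 in ish and was not called in ish2 (0.04).

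Of 34 other ER folding genes tested, 15 rose and 14 fell in ish (median 0.006) and 21 rose and 7 fell in ish2 (median 0.26), beside 8 lower and 2 higher of the 11 chaperones in ish. The share of the 34 called was 85.3% in ish and 82.4% in ish2, against 78.6% and 65% of all tested genes. By direction, 39.1% of all tested genes were called higher and 39.5% lower in ish, and 33.9% higher and 31.1% lower in ish2. CALU, a calcium-binding protein of the secretory pathway, fell by 2.04 in ish, TMX3, a membrane-bound disulfide isomerase, by 1.72, and PPIC, cyclophilin C, rose by 1.37. ERO1A and ERO1B, the oxidases that recharge disulfide isomerases, fell in ish (-0.84 and -0.46) and rose in ish2 (0.73 and 0.77), and FKBP14, a prolyl isomerase, rose in both (0.71 and 0.50). Of 21 other degradation genes, 11 rose and 7 fell in ish and 13 rose and 4 fell in ish2 (85.7% and 81% called). The scaffold genes ERLIN2 and ERLIN1 fell by 1.35 and 1.02 in ish, the ligase gene RNF5 fell by 0.90 and 0.13, and the ubiquitin-conjugating enzyme UBE2G2 rose by 0.56 in ish and fell by 0.61 in ish2. UBE2J1, an enzyme of the same kind, rose in both (0.42 and 0.49), and SELENOK rose by 0.57 in ish2 and was not called in ish (0.09). Of 38 other translocon and export genes, 22 rose and 12 fell in ish and 18 rose and 10 fell in ish2. The share of these 38 called was 89.5% and 73.7%. The COPII genes SEC31A and SEC24C rose in ish with SEC24D (1.21 and 1.03), and by 0.12 and 0.13 in ish2. LMAN1, a cargo receptor for glycoproteins, fell by 0.97 in ish and rose by 0.35 in ish2, and LMAN2, a lectin of the same traffic, rose by 0.21 in ish and fell by 1.24 in ish2. MCFD2, the partner of LMAN1, rose by 0.35 in ish2 and was not called in ish (-0.05), and SRPRA, a receptor subunit for the signal recognition particle, rose by 0.24 in ish and fell by 0.44 in ish2.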

How the data were processed

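RNA of 12 RD libraries was compared in 4 groups of 3. The authors deposited raw read counts per gene symbol without normalization, per the file headers and values. Stranded mRNA libraries gave paired-end reads of 75 bases, per the labels' protocols. Tools named in the submitters' processing notes were STAR 2.7.3a and Trim Galore 0.6.4, with featureCounts and Subread 1.6.3, on GRCh38. The sources used here do not name the annotation. The table's 5 special entries for unassigned reads (21 to 24.4% of each library) were left out. Columns headed i-Sh1 were taken as ish, since ish2 carries the other number.

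The 33 genes, the other lists and the tests were chosen with earlier results of these data known. Counts were filtered by filterByExpr (minimum count 10; 15206 genes kept, 11279 left out), scaled by TMM and fitted by robust quasi-likelihood as 4 group means (edgeR 4.0.16, limma 3.58.1, R 4.3.3). A gene was called where its p, adjusted by Benjamini-Hochberg over all tested genes, was under 0.05. Each fold change sets Dox against no Dox, and its SE was approximated from the F statistic (absolute log2 fold change over root F). The fit was tested on simulated data in which few genes changed. That does not test it where most genes change, as in these data. Members called in opposite directions, and the 6 largest changes per hairpin, are given in every library; of each other list, up to 3 genes per hairpin with the smallest p, and ATF4, DDIT3, PPP1R15A, MYOG and MKI67. Depth, at 26566603 to 32692207 gene counts, limits TXNDC5. Gene positions and mRNA lengths are from GENCODE 29 on GRCh38 matched by symbol; 5 genes of the other lists were matched by older symbols. Replicates were no copies of one another (chi-square per degree of freedom 1.34 to 4.23). The alternatives were RLE factors, library size alone, DESeq2 1.42.0, no low-count filter, each hairpin's own 6 libraries, a replicate block and each library left out. A planned comparison of protein ends was not analysed here.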

Additional observations from a re-analysis of the deposited data

Results flagged for a closer look

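For 31 of the 33 genes the Dox effect differed between ish2 and ish by the test of the difference itself (edgeR quasi-likelihood interaction, adjusted p from 7.94e-30 to 0.0137, 3 libraries in each of 4 groups). Values are the ish2 effect minus the ish effect on the log2 scale, and 72.6% of all tested genes were called in this way.

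Of the chaperones, the effect was higher in ish2 for HSP90B1 1.66, DNAJB11 0.93, DNAJB9 0.88, HYOU1 0.83, DNAJC3 0.79, SDF2L1 0.78, CANX 0.76, HSPA5 0.69 and MANF 0.64, and lower for CALR -0.24 and CRELD2 -0.23. Of the isomerases it was higher for PDIA4 1.5 and PDIA3 0.38 and lower for PPIB -0.62, P4HB -0.34 and PDIA6 -0.12. All 3 sensor and factor genes had a higher effect in ish2, at ERN1 1.41, ATF6 0.21 and XBP1 0.15.

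Of the degradation genes, the higher ones were EDEM1 1.15, DERL1 1.12, EDEM3 0.95, EDEM2 0.81 and SEL1L 0.81, and the lower ones HERPUD1 -0.53, DERL2 -0.36 and OS9 -0.28. In the translocon and export group SEC61B was higher at 0.28, and SEC24D -1.51, SEC61A1 -0.57 and SERP1 -0.47 were lower. SYVN1 (-0.04) and TXNDC5 (0.38) did not pass.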

How the results depend on the processing

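In ish 28 genes were called without any 1 of the 12 libraries, as with all of them, and 28 or 29 in the other settings; in ish2 22 to 28 were called (19 to 25 higher) without 1 library and 24 or 25 otherwise. The class lower in ish and higher in ish2 held 12 to 14 without 1 library and 13 or 14 otherwise. It lost PDIA4 except with library size alone and without ish2 no-Dox replicate 3 (log2 fold changes of PDIA4 in ish2 from 0.03 to 0.07), DNAJB11 without ish2 no-Dox replicate 2 and ATF6 without ish2 Dox replicate 3. It gained EDEM2 without ish2 Dox replicate 1. With library size alone the median of the 33 genes was -0.126 in ish and 0.401 for the difference. Without 1 library it ranged from -0.124 to -0.086 in ish, from 0.124 to 0.166 in ish2 and from 0.347 to 0.597 for the difference, whose value exceeded 1.5 times 0.379 without ish Dox replicate 2 (0.597) and without ish2 Dox replicate 1 (0.574). The median of the difference with all libraries, 0.379, is the value of 1 gene with few reads, TXNDC5. TXNDC5 itself was at 0.574 without ish2 Dox replicate 1, and its highest value without 1 library was 0.597. These 2 shifts thus do not describe a move of the whole set.

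Replicate numbers did not pair the libraries: residuals of like numbers correlated at -0.0798 to 0.0295, and for 3 of 12 libraries the closest was one of the same number. A replicate block changed no call in ish or the difference and lost PDIA4 in ish2 (0.06, adjusted p = 0.0647). Between ish2 and ish without Dox the block left 10 genes called and 0 lower, against 18 and 4, and over all tested genes 611 higher and 629 lower, against 2088 and 1886. There DESeq2 called 2 lower, and 1 to 4 were lower without 1 library (1 without ish no-Dox replicate 3, 2 without ish2 no-Dox replicate 3).

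Values that turned sign were small and not called. SEC61B in ish was -0.012 with library size alone and -0.009 to 0.032 without 1 library. XBP1 in ish was -0.021 with library size alone, -0.002 without the filter and -0.033 to 0.019 without 1 library. In ish2, without 1 library, OS9 ranged from -0.012 to 0.017, PDIA6 from -0.003 to 0.064, SDF2L1 from -0.109 to 0.025 and TXNDC5 from -0.099 to 0.375. P4HB in ish was called with DESeq2 (0.058, adjusted p = 0.0196), RLE factors (adjusted p = 0.0258) and its own 6 libraries (0.044, adjusted p = 0.0492). TXNDC5 was called for the difference without ish2 Dox replicate 1 (0.57, adjusted p = 0.0473). Of 2055 alternative values for single genes, 1992 kept direction and side of the threshold. The cause of the others was not tested.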

Other observations

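In 3 of the 4 groups 1 library was the highest for most of the genes, while in ish2 with Dox the highest was replicate 1, 2 and 3 for 11, 10 and 12 of the 33. In ish2 without Dox, replicate 3 was highest for 10 of 11 chaperones, 5 of 6 isomerases and 4 of 4 translocon and export genes, but for 0 of 3 sensor and factor genes. HSPA5 stood 17.1% above the mean of replicates 1 and 2 there, MANF 17.4%, SDF2L1 17.6%, CRELD2 16.6% and CALR 14.1%. In ish without Dox, replicate 2 was highest for 20 of the 33 genes and for 9 of 11 chaperones, against 33.8% of all tested genes. The median coefficient of variation of the genes within a group was 2.29% in ish without Dox, 1.93% in ish with Dox, 3.73% in ish2 without Dox and 2.69% in ish2 with Dox, TXNDC5 left out.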
